A study of Mus musculus with 4 samples.

Results

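Chromosome 9 of 4 mouse liver tumours was examined through the array probes whose mm9 position lies on it. These were 8736 of 170305 probes, or 8736 of the 161460 probes on chromosomes 1 to 19, and they ran from base 3046525 to base 124061581 at a median spacing of 10.6 kb. The probes were chosen by position alone. The tumours arose in mice labelled FAH-/-, Trp53-/-, each given a number (239, 240, 244 and 252), and all 4 are labelled male. Mice of this colony drank NTBC at 7.5 mg per L, and the tumour mice spent 6 months at 2.5% of that dose. The comparison sample was 1 pool of liver DNA from 3 male FAH+/+, Trp53+/+ littermates, used on every array. Tumour DNA carried Cy5 and pool DNA Cy3 on every array, with no dye swap, and all 4 arrays lay on 1 slide read in 1 scan. Neither the dissection of the tumours nor their share of normal cells is given in the sources used here.

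FAH is the last enzyme of tyrosine breakdown, and without it toxic products build up in hepatocytes. NTBC blocks an earlier step and so keeps such mice alive, and lowering its dose leads to liver injury and, in time, to tumours. Trp53 encodes p53, which stops or removes cells with damaged or missegregated chromosomes. Array comparative genomic hybridisation reads DNA copy number as the ratio of tumour signal to normal signal at each probe. Values below are log2 ratios of tumour over pool, centred on each array's median over chromosomes 1 to 19. In diploid cells a single-copy loss present in every cell would give -1, and admixed normal cells or higher ploidy would make it smaller. Mouse chromosome 9 carries DNA damage kinases such as Atr and Chek1, the TGF-beta receptor Tgfbr2 and its effector Smad3, the Hippo effector Yap1 and beta-catenin (Ctnnb1), besides liver genes for transferrin and apolipoproteins.

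The probes that carry the most distinct values on the chromosome are shown first. Around the low locus of distal chromosome 9, the files list these 60-base probes, here with the neighbour on either side of a run of 3 low ones. Each is written as listed in the files, with its mm9 position. No source used here gives the strand, and all letters are in lower case because no base is singled out. Upstream and downstream below therefore mean only a lower and a higher mm9 position.
upstream neighbour, chr9:117877147-117877206: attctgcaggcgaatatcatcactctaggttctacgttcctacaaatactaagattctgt
low probe, chr9:117884082-117884141: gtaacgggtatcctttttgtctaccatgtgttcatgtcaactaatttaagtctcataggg
low probe, chr9:117899574-117899633: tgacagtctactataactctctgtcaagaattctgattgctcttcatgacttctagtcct
low probe, chr9:117905339-117905398: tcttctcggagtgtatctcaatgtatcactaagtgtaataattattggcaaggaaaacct
downstream neighbour, chr9:117913142-117913201: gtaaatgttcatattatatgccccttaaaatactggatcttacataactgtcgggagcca

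Another 5 single probes are shown because their values are far from 0 in every tumour. Those named Dock3 and Tmem108 have the 2 lowest measured means outside the low locus, and the 3 named Nek11 are high probes within 1 gene.
Dock3, chr9:106994941-106995000: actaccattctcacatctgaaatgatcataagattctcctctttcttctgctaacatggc
Tmem108, chr9:103405535-103405594: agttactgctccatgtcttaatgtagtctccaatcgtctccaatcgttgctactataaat
Nek11, chr9:105137868-105137927: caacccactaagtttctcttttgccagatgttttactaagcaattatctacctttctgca
Nek11, chr9:105210878-105210937: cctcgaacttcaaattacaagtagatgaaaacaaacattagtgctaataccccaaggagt
Nek11, chr9:105289073-105289132: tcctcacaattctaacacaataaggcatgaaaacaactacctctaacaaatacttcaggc

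Some facts of the arrays bear on every value. The SD of the noise between neighbouring chromosome 9 probes ran from 0.25 (tumour 239) to 0.35 (tumour 252), and 98.7% to 98.9% of its spots were well above background in both colours. The 4 tumours were each measured once, which limits the precision, and the single pool leaves the spread among control livers out of every test. Tumour 252 went against its male label: its X probes had a median of 0.73 and its 122 Y probes a median of -2.43, against -0.30 to -0.09 and -1.20 to -0.14 in the other 3 tumours. The whole-chromosome means and differences are therefore also given without it, as are some counts and calls by bin and gene. The other values include it. Every ratio shares the pool's signal at its probe, so an offset of the pool or of the probe sequence repeats in all 4 arrays and is not part of the spread that limma or a permutation test uses.

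At the scale of the whole chromosome, tumour 244 stood low and the other 3 lay nearer 0. In tissue DNA, a change in some of the cells and a smaller change in all of them cannot be told apart. The mean log2 ratio of chromosome 9 was -0.024 in tumour 239, -0.0021 in tumour 240, -0.232 in tumour 244 and -0.0936 in tumour 252. In tumour 244, 74.5% of chromosome 9 probes were below 0, and 59.1% were in tumour 252, against 48.6% and 49.5% of the probes of the other autosomes. In tumours 239 and 240 the shares were 49.3% and 48.6% on chromosome 9, against 50.04% and 50.08% on the other autosomes. Tumour 244 was the lowest of the 4 at 65.0% of chromosome 9 probes, against 30.0% of probes elsewhere. The mean over tumours was -0.088 ± 0.104 (SD, n = 4), below 0 in 4 of 4 tumours, with an exact two-sided sign-flip permutation p of 0.125, the smallest that 4 tumours allow, and 0.278 adjusted over 20 chromosomes. Without tumour 252 the mean was -0.0862, and without tumour 244 it was -0.0399. The medians over probes were 0.0044, 0.0089, -0.219 and -0.082 in tumours 239, 240, 244 and 252, so the sign in tumours 239 and 240 turned with the summary.

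**Figure D1:**
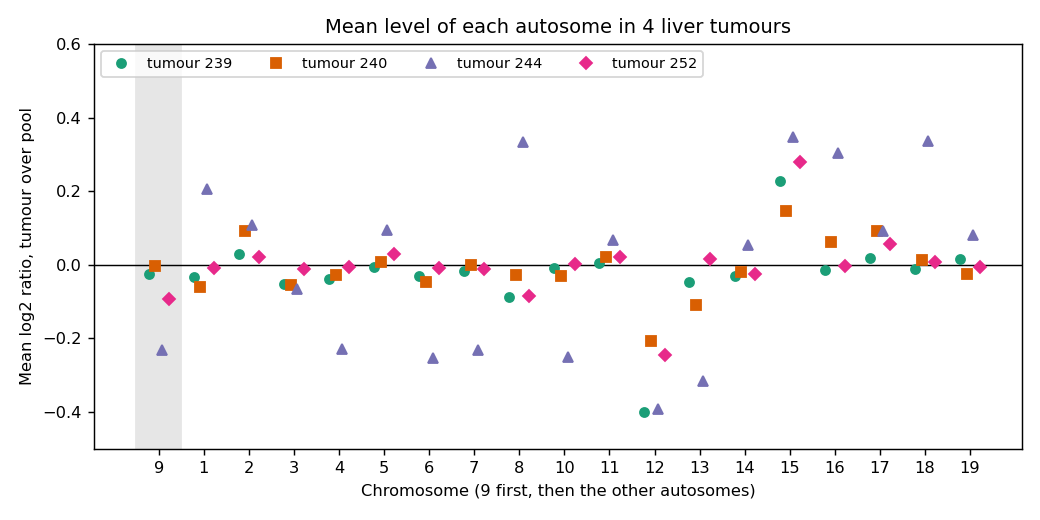
Mean log2 ratio (tumour over pool) of chromosome 9, shaded at the left, and of the other autosomes, with 1 marker per tumour. Chromosome 9 lies at -0.232 in tumour 244 and between -0.0936 and -0.0021 in the other 3.

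Set against the other autosomes of the same array, chromosome 9 was lower by 0.236 in tumour 244 and by 0.0938 in tumour 252 on the log2 scale, and 0.0026 and 0.0088 higher in tumours 239 and 240. The mean difference was -0.080 ± 0.115 (SD, n = 4; exact two-sided sign-flip permutation p = 0.5, adjusted p = 1 over 5 comparisons), and -0.0275 without tumour 244. Without tumour 252 the mean difference was -0.0750. Ranked from the lowest among 19 autosomes, chromosome 9 came 9, 11, 5 and 2 in tumours 239, 240, 244 and 252. Chromosomes 4, 6, 10 and 13 were chosen for a comparison as the parts most like chromosome 9, and each was also low in tumour 244. Chromosome 7, at -0.018, 0.00015, -0.231 and -0.012 in tumours 239, 240, 244 and 252, was close to chromosome 9 as well and was not among them. Chromosome 9 minus chromosomes 4, 6, 10 and 13 averaged -0.012, -0.0036, -0.016 and 0.025, with an adjusted exact permutation p of 1 for each. Differences near 0 follow in part from that choice, so these tests say little about chromosome 9. In tumour 252 alone it lay below all 4, by -0.088, -0.086, -0.097 and -0.110. Without tumour 252 the first 3 of these mean differences were above 0, at 0.0126, 0.0239 and 0.0107.

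Tumour 244 was low along the whole length of the chromosome, which was divided into 122 bins of 1 Mb with at least 5 probes each. Tumour 244 lay below 0 in 122 of 122 bins, tumour 252 in 111, tumour 239 in 73 and tumour 240 in 65. Bins of tumour 244 ran between -0.43 in the bin from 85000001 and -0.09 in the bin from 118000001. Those of tumour 252 ran between -0.33 and 0.11, and those of tumours 239 and 240 between -0.24 and 0.12 each. At -0.2 or lower stood 82 bins in tumour 244 (67.2%), against 30.5% of that array's autosomal bins. Tumour 252 had 13 such bins (10.7%, against 7.04% of autosomal bins), tumour 239 had 5 (4.10%, against 9.76%) and tumour 240 had 1 (0.820%, against 6.11%). No bin of chromosome 9 reached 0.2 in any of the 4 tumours. At a threshold of -0.3 tumour 244 kept 31 bins.

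**Figure D2:**
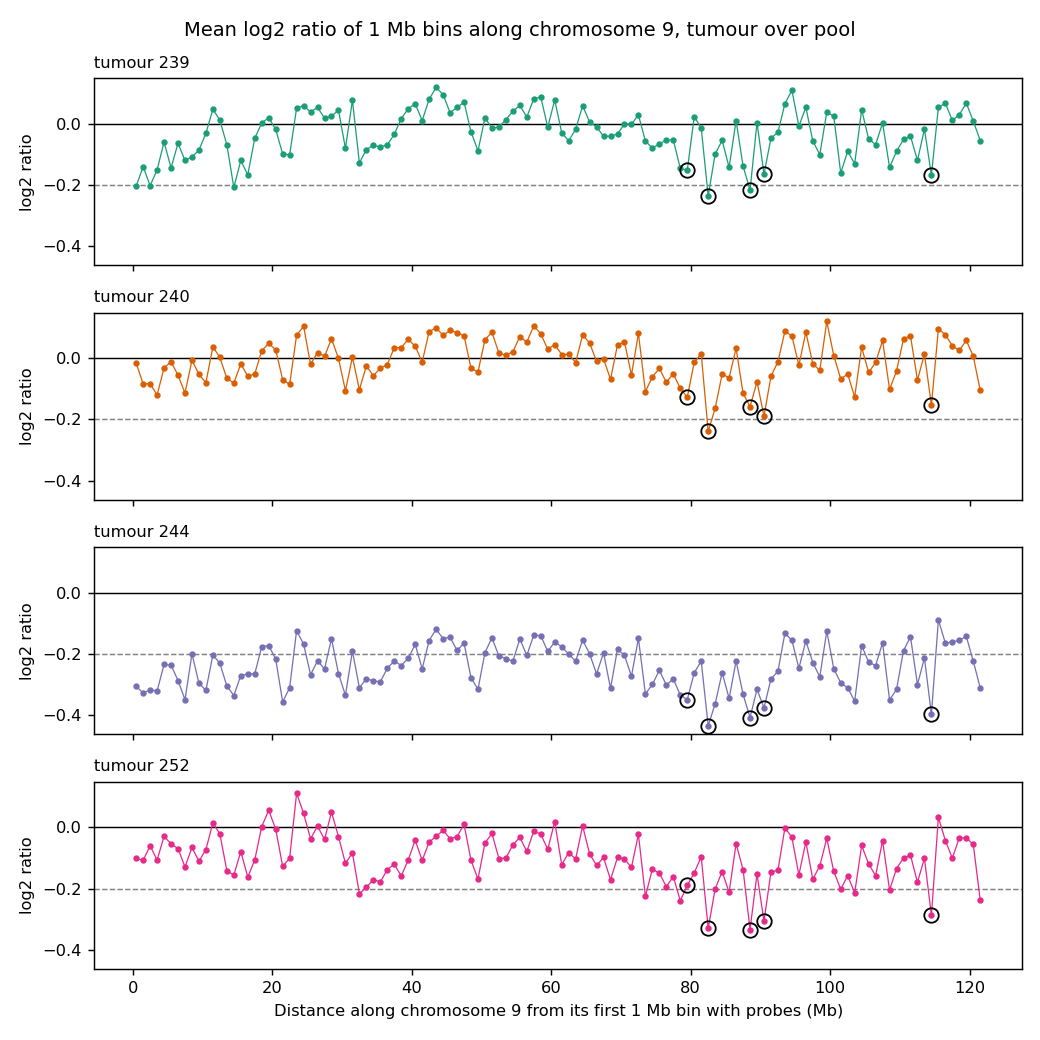
Mean log2 ratio (tumour over pool) of each 1 Mb bin of chromosome 9 by distance from the first bin with probes, 1 panel per tumour. The dashed line marks -0.2 and black rings mark the 5 bins called below 0 across tumours. Tumour 244 lies below 0 in 122 of 122 bins. Many of the peaks and dips recur in the other panels, but the highest bin lies at a different place in each tumour.

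Taking the tumours against each other removes whatever the 4 arrays share at a probe. Over 25 windows of 5 Mb, the median over probes of tumour 244 minus the mean of the other 3 was below 0 in 25 of 25 windows. It ran between -0.248 and -0.177, with a median of -0.197 and an SD over windows of 0.017. The gap was thus nearly level from one end of the chromosome to the other. The same difference for tumour 239 had a median of 0.096 but was -0.021 in the first window, where its window mean was -0.172. For tumour 252 it ran between -0.061 and 0.076, and for tumour 240 between 0.082 and 0.153. As chromosome 9 of tumour 244 lies in each of those averages, the levels of the other 3 differences are raised or lowered by it.

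Splitting the probes into segments of even level gave the same picture. In tumour 244 the stretch from 3046525 to 117866676, with 8193 probes, averaged -0.236, and the stretch from 117923523 to 124061581, with 538 probes, averaged -0.16. Between them lay 5 probes at -2.01, from 117877147 to 117913201. Tumours 240 and 252 had the same 2 borders, with -0.0042 and -0.096 before the locus, -1.82 and -2.08 in it, and 0.046 and -0.041 after it. Tumour 239 averaged -2.03 over 5 probes shifted by 1 probe, from 117866617 to 117905398, and 0.038 after them. By the setting a segment holds at least 5 probes, so the shorter run of low probes had to take in neighbours. The borders and means of these short segments therefore do not measure the extent or depth of the locus. Tumour 239 also had a low segment from 104253345 to 105122542 with 68 probes, at -0.31. Over those 68 probes tumours 240, 244 and 252 averaged -0.20, -0.43 and -0.34, each lower than the long segment of its own that held them. Of these probes 5 lay at -1 or lower in all 4 tumours. Without those 5, tumours 239, 240, 244 and 252 averaged -0.18, -0.06, -0.29 and -0.20, so the mean of tumour 239 was then above -0.2. Probes in segments at -0.2 or lower made up 93.8% of chromosome 9 in tumour 244, against 35.0% of that array's autosomal probes. They made up 0.836%, 0.0572% and 0.0572% in tumours 239, 240 and 252, against 5.40%, 4.91% and 4.59% of the autosomal probes. At a threshold of -0.3 the share in tumour 244 was 0.0572%, since the long segment lies at -0.236.

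Testing the bins across tumours with limma called few of them. Of 122 bins, 5 were below 0 at an adjusted p of 0.05 over the bins of all chromosomes, or 4.10%, against 8.5% of bins genome-wide. No bin was called above 0, against 4.6% genome-wide, and none had an unadjusted p under 0.05 in that direction. The 5 bins started at 82000001, 85000001, 91000001, 93000001 and 117000001. The lowest, from 85000001, gave -0.24, -0.24, -0.43 and -0.33 in tumours 239, 240, 244 and 252. Its mean was -0.31 ± 0.09 (SD, n = 4), below 0 in 4 of 4, at a limma adjusted p of 0.0187. Without its 2 probes at -1 or lower in all 4 tumours it averaged -0.20, above the bin from 93000001, which has no such probe, and the bin from 91000001, at -0.23 without its 1. It holds probes of Ibtk, an inhibitor of Bruton's tyrosine kinase. The bin from 93000001 has 26 probes and no gene name in the files. It gave -0.16, -0.19, -0.38 and -0.31 in tumours 239, 240, 244 and 252 and averaged -0.26 ± 0.10 (SD, n = 4), at a limma adjusted p of 0.0294. The bin from 117000001, around the low locus, averaged -0.25 over its 73 probes, and -0.08 without the 5 probes that lay at -1 or lower in all 4 tumours. These calls depended on single tumours: without tumour 239, 240, 244 or 252 the count was 0, 0, 25 or 1, and with bin medians in place of means it was 0.

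With each tumour's own chromosome median taken out, many of the remaining ups and downs repeated between tumours. Relative to it, 55 bins (45.1%) were below and 30 (24.6%) above at a limma adjusted p of 0.05. Over all chromosomes 40.8% and 25.1% of bins were, so chromosome 9 lay near the background. The bin from 85000001, low probes included, was lowest, at -0.24, -0.25, -0.21 and -0.25 in tumours 239, 240, 244 and 252. The bin from 26000001 was highest, at 0.05, 0.07, 0.10 and 0.19 in the same tumours. Probe by probe, pairs of tumours correlated at r = 0.73 to 0.88 over 8733 to 8736 chromosome 9 probes, and at r = 0.52 to 0.89 over the medians of 25 windows of 5 Mb. These are descriptions across probes and windows, which share the pool's signal and are not independent samples.

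Probes low in every tumour were concentrated in the distal part of the chromosome. In all 4 tumours 72 of 8733 probes (0.824%) lay at -1 or lower, against 0.635% of autosomal probes, which put chromosome 9 at rank 4 of 19 after chromosomes 7, 13 and 12. Up to 75 Mb there were 10 among 5279 probes (0.189%), between 75 and 95 Mb 25 among 1116 (2.24%), and from 95 Mb to the end 37 among 2341 (1.58%). These borders were chosen after the values were seen. Probes at -0.5 or lower in all 4 tumours followed the same pattern, at 2.31%, 6.90% and 4.57%. The SD of the probes' means over tumours was 0.30, 0.39 and 0.42 in these 3 stretches, with a median GC content of 36.7% in each.

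**Figure D3:**
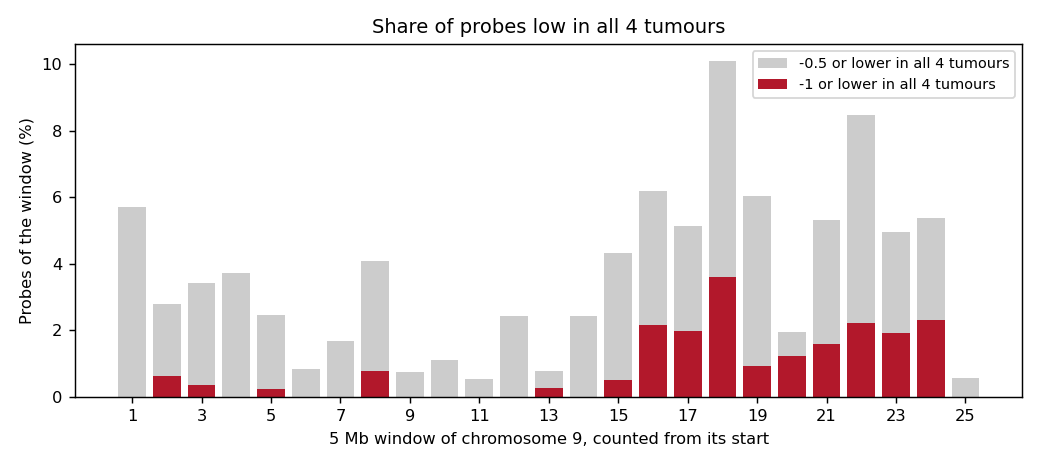
Percent of the probes in each 5 Mb window of chromosome 9, counted from its start, that lay at -0.5 or lower (grey) and at -1 or lower (red) in all 4 tumours. The tallest window, number 18, holds 10.1% and 3.61%, and window 25 at the distal end holds 0.571% and 0%.

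The low probes had a brighter pool signal than the rest, with a median of 1663 against 937 for the other chromosome 9 probes, and a dimmer tumour signal, with a median of 533 against 905. Choosing probes by a low ratio favours both, so these medians are no separate trait of the low probes. Their probe GC content did not set them apart, with a median of 36.7% in both sets. Of the 72, 46 carry a gene name in the files (63.9%), against 62.9% of the other probes. They were mostly single. The low locus held the only run of 3 neighbouring low probes, and the pair from 104363112 and 104400591 had no probe between them. The lowest measured mean was that of the Dock3 probe printed above, in the gene of a guanine nucleotide exchange factor for Rac. Its log2 ratios were -3.54, -4.60, -4.69 and -4.73 in tumours 239, 240, 244 and 252. The tumour signal was not well above background on any of the 4 arrays, so only a bound can be given: averaged over the 4 arrays on the log2 scale, the tumours were at least 12.7-fold lower than the pool. Its order against the Tmem108 probe is therefore not known. The Tmem108 probe, in a gene for a transmembrane protein, gave -4.13, -4.30, -4.01 and -4.01. Its tumour signals of 338, 299, 362 and 341 were well above background, against 5820, 5803, 5689 and 5526 in the pool channel of the same arrays.

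The low locus of distal chromosome 9 was chosen for its values, so they are given as a description with no test. Its 3 consecutive probes span 21.3 kb, from 117884082 to 117905398. Their mean was -3.11, -2.86, -2.92 and -3.18 in tumours 239, 240, 244 and 252, or -3.02 ± 0.15 over tumours (SD, n = 4). The tumours are not ranked on that mean, because at 2 of the 3 probes the tumour signal was not well above background. The first probe gave -1.82, -1.74, -2.02 and -1.82 in tumours 239, 240, 244 and 252, with tumour signals of 370, 405, 313 and 346 against pool signals of 1291, 1329, 1241 and 1233. At this probe tumour 244 was the lowest. The second gave -3.90, -3.18, -3.43 and -4.16, and the third -3.62, -3.67, -3.30 and -3.54. At these last 2 probes the tumour signal was not well above background on any array, and the tumours were on average over the 4 arrays, taken on the log2 scale, at least 4.45-fold and 2.72-fold lower than the pool. The pool signal there was 323 to 530 and 193 to 296.

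The first probe after the run lay near 0, while the first probe before it was still low. The next one out on that side, at 117866617, averaged 0.05 over tumours. The neighbour at 117877147 gave -0.74, -0.63, -1.03 and -0.72 in tumours 239, 240, 244 and 252. The neighbour at 117913142 gave 0.00, 0.10, -0.26 and -0.16. The 10 probes before the run averaged -0.04 and the 10 after it -0.07 over the 4 tumours. All 3 low probes carry the name ENSMUST00000035017 in the files, a transcript identifier that was not matched to a gene name here. Its 6 probes averaged -1.64 ± 0.11 (SD, n = 4). In RefSeq's gene order of GRCm38.p6, Zcwpw2 and several noncoding genes lie between Rbms3, an RNA-binding protein gene, and Azi2, an adaptor of TBK1 signalling. Rbms3 averaged -0.03, -0.02, -0.26 and -0.16 over its 97 probes in tumours 239, 240, 244 and 252 (limma adjusted p = 0.202). Azi2 averaged -0.03, 0.04, -0.20 and -0.01 over 3 probes in the same tumours (limma adjusted p = 0.569). Neither neighbour passed the test, and in both tumour 244 was the lowest. Rbms3 still held 2 probes at -1 or lower in all 4 tumours, at 117335912 with a mean of -1.08 and at 117389686 with a mean of -2.74. Cmc1, a cytochrome c oxidase assembly gene on the far side of Azi2, had single probes at -1.23 (117987163) and -1.02 (118049939) among 9 probes. Counting from the first to the last probe with a mean of -1 or lower, the locus would run over 19 probes and 165.9 kb, with means of -0.54, -0.48, -0.68 and -0.62 in tumours 239, 240, 244 and 252.

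**Figure D4:**
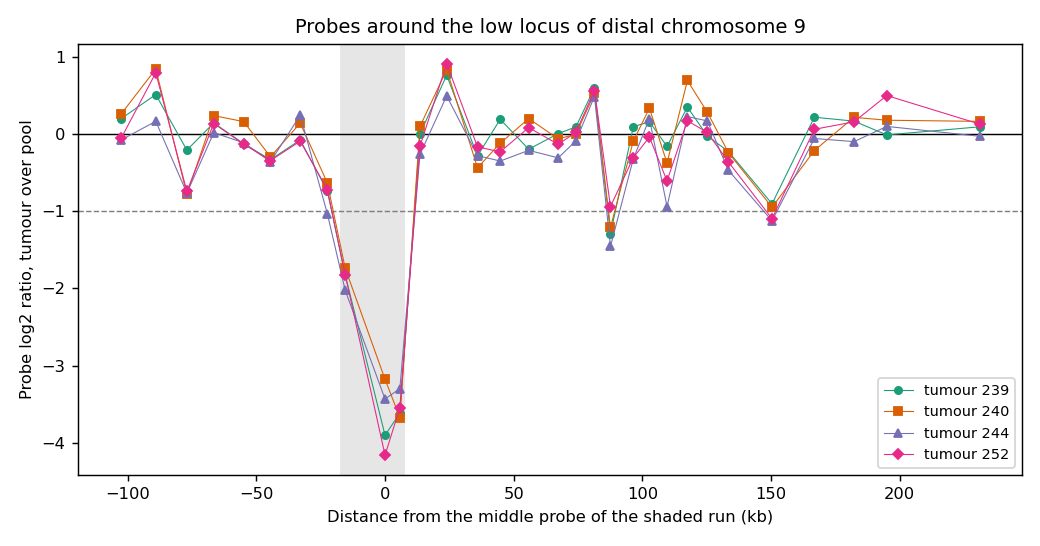
Log2 ratio (tumour over pool) of single probes by distance in kb from the middle probe of the low run, with 1 line per tumour. The shaded run of 3 probes averages -3.02 over tumours and the 10 probes on either side -0.04 and -0.07. The dashed line marks -1.

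High probes were rarer. In all 4 tumours 5 of 8733 chromosome 9 probes (0.0573%) lay at 1 or higher, against 0.0824% of autosomal probes, and 3 of the 5 were in Nek11, a NIMA-related kinase of the DNA damage checkpoint. The Nek11 probe at 105137868 gave 1.56, 1.37, 1.24 and 1.30 in tumours 239, 240, 244 and 252, the one at 105210878 gave 1.27, 1.37, 1.25 and 1.23, and the one at 105289073 gave 1.77, 1.74, 1.25 and 1.27. The other 21 of its 24 probes averaged between -1.19 and 0.26 over tumours, so high and low probes lie intermixed along 1 gene. The remaining high probes were 1 in Clstn2, a calsyntenin gene, at 97403318 with a mean of 1.28, and 1 without a gene name at 106324599 with a mean of 1.60.

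By gene, limma called 220 of 1069 chromosome 9 gene names below 0 (20.6%), against 15.1% of gene names genome-wide. It called 73 above 0 (6.83%), against 17.6% genome-wide. The median gene lay at -0.06 on chromosome 9 and at 0.02 over all 18702 gene names. By tumour the median chromosome 9 gene lay at 0.01, 0.01, -0.21 and -0.07 in tumours 239, 240, 244 and 252, and tumour 244 was the lowest for 864 of 1069 genes. Without tumour 244 the counts were 143 below and 100 above, without tumour 240 they were 134 and 24, and without tumour 252 they were 166 and 46. Calls below 0 came from 25.4% of 354 genes with 1 probe and from 16.4% of 128 genes with 10 or more probes. Of the 45 genes called below 0 on 5 or more probes, 21 held a probe at -1 or lower in all 4 tumours, and 22 had a median probe above -0.2.

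The genome guardians and tumour suppressors had 17 of 18 listed genes measured, with 3 called below 0, 1 above and 13 past no threshold, and a median of -0.07. The share below was 17.6%, close to the 20.6% of all chromosome 9 genes. The share above was 5.88%, close to the 6.83% of all chromosome 9 genes. Tumour 244 was the lowest of the 4 for 17 of 17. The called ones were Atr, the kinase that answers replication stress, Chek1, its downstream checkpoint kinase, and Tgfbr2, below 0, and Rassf1, a tumour suppressor of the Hippo and Ras pathways, above 0. Atr averaged -0.25, -0.29, -0.48 and -0.32 over 9 probes in tumours 239, 240, 244 and 252, or -0.33 ± 0.10 over tumours (SD, n = 4), at a limma adjusted p of 0.00736. Without its probe at 95828026, which averaged -1.29, Atr stood at -0.21. Chek1 gave -0.27, -0.32, -0.71 and -0.53 on 2 probes (limma adjusted p = 0.00685), and Rassf1 gave 0.75, 0.36, 0.30 and 0.43 on 1 probe (limma adjusted p = 0.00634). Tgfbr2 averaged -0.41, -0.32, -0.46 and -0.39 over 9 probes in tumours 239, 240, 244 and 252 (limma adjusted p = 0.0030), below 0 in 4 of 4. That level came from 2 probes, at 116012723 with -2.13, -2.04, -2.12 and -2.16 and at 116050144 with a mean of -1.98. Without those 2 probes Tgfbr2 averaged 0.11, 0.16, -0.05 and 0.08. Smad3, which carries the TGF-beta signal to the nucleus, gave 0.12, 0.08, -0.11 and 0.06 over 13 probes (limma adjusted p = 0.669). Stag1, a cohesin subunit, gave -0.09, -0.07, -0.28 and -0.20 over 30 probes (limma adjusted p = 0.0838). Cadm1, a cell adhesion gene, gave 0.14, 0.08, -0.15 and 0.02 over 35 probes (limma adjusted p = 0.819). In each of these 3 genes tumour 244 was the lowest.

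Of 15 genes of growth and survival signalling, 14 were measured, with a median of -0.18. Below 0, 4 were called (28.6%, against 20.6% of all chromosome 9 genes). Above 0, 1 was called (7.14%, close to the 6.83% of all chromosome 9 genes). Those below were Birc2 and Birc3, both inhibitors of apoptosis, Rhoa, a GTPase of the actin cytoskeleton, and Acvr2b, an activin receptor. Mst1r, a receptor tyrosine kinase, was the one above. Rhoa had the smallest spread, at -0.46, -0.46, -0.54 and -0.47 over 4 probes in tumours 239, 240, 244 and 252 (limma adjusted p = 0.00141). Its probes disagreed: that at 108211862 averaged -0.93 and that at 108227901 -1.24, while the other 2 averaged 0.04 and 0.20. Acvr2b gave -0.09, -0.20, -0.53 and -0.37 over 4 probes (limma adjusted p = 0.0282), and its call was lost under normexp and lowess and without tumour 240, 244 or 252. Birc2 gave -0.15, -0.52, -0.65 and -0.59 on 2 probes (limma adjusted p = 0.00756). Pik3cb, a catalytic subunit of phosphoinositide 3-kinase, gave -0.04, 0.12, -0.11 and -0.08 over 11 probes (limma adjusted p = 0.745). Fli1, an ETS transcription factor, gave 0.00, -0.12, -0.41 and -0.19 over 12 probes (limma adjusted p = 0.11), and Cbl, a ubiquitin ligase for receptor kinases, gave 0.01, 0.04, -0.07 and 0.05 over 9 probes (limma adjusted p = 0.945).

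Of 27 genes of liver metabolism and plasma proteins, 21 were measured, with a median of 0.01. Of these, 4 were called below 0 (19.05%, close to the 20.6% of all chromosome 9 genes). Above 0 there was 1 (4.76%, against 6.83% of all chromosome 9 genes). Below 0 were Trf, which encodes transferrin, Me1, the cytosolic malic enzyme, Dlat, a subunit of pyruvate dehydrogenase, and Acad8, an acyl-CoA dehydrogenase of valine breakdown. Me1 averaged -0.23, -0.25, -0.38 and -0.28 over 12 probes in tumours 239, 240, 244 and 252 (limma adjusted p = 0.0093). Without its probe at 86485310, which gave -2.69, -2.42, -2.50 and -2.67, it averaged -0.01, -0.06, -0.18 and -0.07. Trf gave -0.10, -0.27, -0.52 and -0.35 over 3 probes in the same tumours (limma adjusted p = 0.0195), and its call was lost without tumour 240 or 244. Aldh1a2, which makes retinoic acid, was above 0 at 0.43, 0.31, 0.07 and 0.19 over 7 probes (limma adjusted p = 0.0363). That call was lost under normexp and lowess, with centring on the mode of bins and without tumour 239 or 240. Lipc, the hepatic lipase, gave 0.06, 0.14, -0.14 and -0.02 over 13 probes (limma adjusted p = 0.915). Bckdhb, of branched-chain amino acid breakdown, gave 0.11, 0.09, -0.19 and -0.06 over 21 probes (limma adjusted p = 0.904).

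Each gene of large extent averages many probes. All 18 listed were measured over 998 probes, with a median of -0.02, and tumour 244 was the lowest for 18 of 18. Of them 1 was called below 0 (5.56%) and none above, against 20.6% and 6.83% of all chromosome 9 genes. Their medians were 0.06, 0.04, -0.20 and -0.04 in tumours 239, 240, 244 and 252. Cntn5, a contactin of neurons, gave -0.07, -0.07, -0.30 and -0.08 over 125 probes (limma adjusted p = 0.157). Opcml and Ntm, 2 neural adhesion genes side by side, gave 0.04, 0.01, -0.24 and -0.02 over 113 probes and 0.08, 0.03, -0.20 and 0.03 over 100 probes (limma adjusted p = 0.579 and 0.876). In all 3 genes tumour 244 stood apart from the other tumours, which lay close together. Cpne4, a copine, was the one called, at -0.23, -0.13, -0.35 and -0.24 over 44 probes (limma adjusted p = 0.0216). Without its 2 probes at -1 or lower in all 4 tumours it averaged -0.15, -0.05, -0.27 and -0.17 in tumours 239, 240, 244 and 252. It lies in the segment from 104253345 to 105122542 that was low in tumour 239, and its call was lost without tumour 239, 240 or 252.

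Among clustered families, 4 of 8 measured chemokine receptor genes were called below 0 and none above, with a median of -0.31, and each had 1 or 2 probes. That is 50%, against 25.4% of all chromosome 9 genes with 1 probe and 20.6% of all chromosome 9 genes. Ccr3, a receptor of eosinophils, gave -0.60, -0.61, -0.78 and -0.55 on 2 probes in tumours 239, 240, 244 and 252 (limma adjusted p = 0.00084), and both probes were below 0 in every tumour. Ccr2, the monocyte receptor, gave -0.31, -0.67, -0.89 and -0.83 on 1 probe (limma adjusted p = 0.00325). Ccr9 gave 0.16, -0.02, -0.16 and -0.02 on 2 probes (limma adjusted p = 0.907). The matrix metalloproteinases had 1 of 8 called below and 1 above (12.5% each), with a median of -0.04. Of all chromosome 9 genes 20.6% were called below and 6.83% above. Mmp1b, a collagenase-like member, was above 0 at 0.22, 0.47, 0.31 and 0.33 over 3 probes (limma adjusted p = 0.00782) but averaged -0.44 under normexp. Mmp8 and Mmp20 averaged -0.05 and 0.10 (limma adjusted p = 0.684 and 0.334). Of 12 olfactory receptor genes 1 was called below (8.33%, against the same 20.6%) and none above, with a median of -0.14. Olfr27, Olfr44 and Olfr947-ps1 gave -0.19, -0.16 and -0.11 (limma adjusted p = 0.158, 0.138 and 0.186). Cross-hybridisation within such families was not tested.

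Among genes with 5 or more probes past the threshold, the lowest besides ENSMUST00000035017 were Nmnat3, Ibtk, Dop1a and Lrrfip2. Nmnat3, a mitochondrial enzyme of NAD synthesis, gave -0.31, -0.38, -0.64 and -0.50 over 11 probes in tumours 239, 240, 244 and 252 (limma adjusted p = 0.00374). Without probes at 98220601 and 98246189, with means of -2.48 and -2.29, it averaged 0.13, 0.03, -0.22 and -0.07. Lrrfip2 gave -0.33, -0.38, -0.58 and -0.38 over 11 probes (limma adjusted p = 0.00383), and 0.01, -0.08, -0.28 and -0.05 without its 2 low probes. Ibtk gave -0.26, -0.42, -0.61 and -0.51 over 6 probes (limma adjusted p = 0.00421), and 0.04, -0.14, -0.30 and -0.23 without 1. Dop1a, named Dopey1 in the files and known from endosome transport, gave -0.34, -0.34, -0.59 and -0.43 over 10 probes (limma adjusted p = 0.0039). It held no probe at -1 or lower in all 4 tumours, and 8 of its 10 probes averaged below 0, so its level was spread over the gene.

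The highest 5 were Ncapd3, a condensin subunit, Aldh1a2, Golga4, a golgin, Fbxl2, an F-box protein, and Dnmt1, the maintenance DNA methyltransferase. Ncapd3 gave 0.21, 0.28, 0.07 and 0.45 over 7 probes in tumours 239, 240, 244 and 252, and Golga4 gave 0.32, 0.27, 0.16 and 0.21 over 7 probes (limma adjusted p = 0.0339 and 0.0186). Fbxl2 averaged 0.23 and Dnmt1 0.21, each above 0 in 4 of 4 tumours (limma adjusted p = 0.0275 and 0.0355). Under normexp background correction Ncapd3, Golga4, Fbxl2 and Dnmt1 lay below 0, at -0.32, -0.24, -0.10 and -0.08, so their direction depended on the processing.

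**Figure D5:**
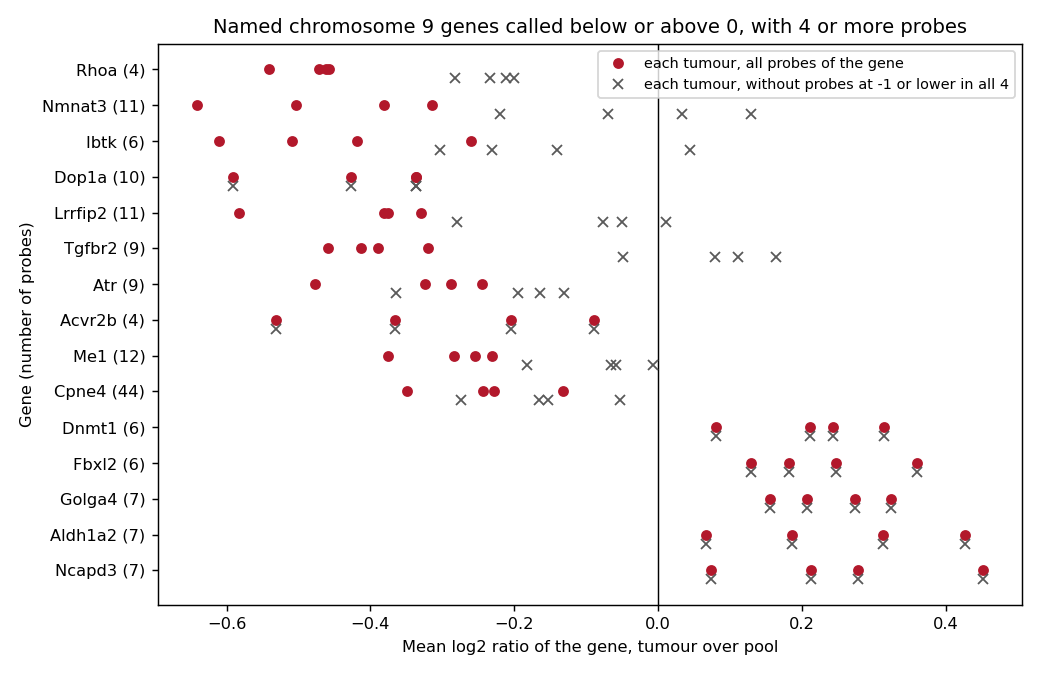
Mean log2 ratio (tumour over pool) of named chromosome 9 genes called below or above 0 on 4 or more probes, with 1 point per tumour. Circles use all probes of a gene and crosses leave out probes at -1 or lower in all 4 tumours. Tgfbr2 moves to between -0.05 and 0.16 without its 2 low probes, while Dop1a has none and does not move.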

How the data were processed

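Each tumour was hybridised with the pool on its own 2-colour Agilent CGH array. Agilent Feature Extraction 12.0.0 read the scans, per the submitters' processing notes. Per the file headers, the processed intensity of each colour is background-subtracted and dye-normalised, the mean and background intensity columns are scanner brightness, and the deposited log10 ratio is red over green, here tumour over pool. The value table that the authors deposited repeats this log10 ratio to within 0.00497. Spot flags mark outliers and signal above background, per the file headers. Control spots and 95 to 120 outlier spots per array were dropped, and spots of a probe were averaged. The log2 ratio of the deposited processed intensity values was centred on the autosomal median. No loess or quantile step was used.

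Means of 1 Mb bins (5 or more probes) and of each gene's probes were fitted by an intercept-only model in limma 3.58.1 (R 4.3.3), with Benjamini-Hochberg adjustment over all bins or genes. All 18702 gene names entered the fit. On chromosome 9, 905 names matched a current RefSeq symbol of GRCm38.p6, 41 an older one and 123 kept the files' name. Segments came from least-squares partitioning with a penalty of 4 times the natural log of the probe number times the noise variance, at least 5 probes each, and neighbours within 0.1 merged. The fits were run on simulated data with independent noise on each array. No offset shared by the 4 arrays was simulated, so that limit of the limma tests was not covered. Whole-chromosome values used exact sign-flip permutation tests over 4 tumours. The remaining computation was done in Python 3.11.15 (pandas 2.3.3, numpy 2.4.6, numba 0.67.0, matplotlib 3.10.9).

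The chromosome, lists and rules were chosen with earlier results of these data known. Named genes were, for each list, the 3 members with the most probes and up to 5 called members with at least 3 probes, the genes at the low locus with their neighbours, and the 5 lowest and 5 highest called genes with at least 5 probes. Chek1, Birc2, Birc3, Mst1r, Dlat, Acad8, Rassf1, Ccr2, Cmc1, Nek11, Clstn2, Dock3 and Tmem108 were named after their values were seen. Alternatives were other centring, normexp with an offset of 50, lowess on intensity with a span of 0.3, the value table, a filter on background, robust limma, other bin sizes and thresholds, and leaving out each tumour.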

Additional observations from a re-analysis of the deposited data

Results flagged for a closer look

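In tumour 244, 3 values lay far from the other 3 tumours by Dixon's criterion at 95%, among 44 groups of 4 tested, and chance flags about 1 in 20 groups. Tumour 244 had 82 chromosome 9 bins at -0.2 or lower, against 5, 1 and 13 in tumours 239, 240 and 252. Its Cntn5 level was -0.30, against -0.07, -0.07 and -0.08. Its Rhoa level was -0.54, against -0.46, -0.46 and -0.47, a gap that only just passed the criterion. Chromosome 9 was chosen with earlier results of these data known, so the flag on the bin count is a description and not an independent test. Cntn5 and Rhoa lie on the same chromosome, which was low along its length in tumour 244. Their flags are therefore not separate findings.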

How the results depend on the processing

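Across 661 recomputed values, 536 kept their direction and their side of the threshold, or stayed near their value where there was no test. The cause was not tested for the others. Of the 5 chromosome 9 bins below 0, centring on the mode of bin means left 1, normexp gave 18, lowess 12, probes well above background 3 and robust limma 8. Bin medians and 5 Mb bins gave 0 under limma, with 30 and 8 at an unadjusted p under 0.05. Leaving out 1 tumour gave 0 to 25, with 25 and 38 at an unadjusted p under 0.05 for the 2 counts of 0 (without tumours 239 and 240). Genes below 0 numbered 382 under normexp and 134 to 228 without 1 tumour, against 220. Genes above 0 numbered 38 with the mode of bins, 41 under lowess and 24 to 100 without 1 tumour, against 73. The share of gene calls below 0 was 75.1%, 82.0% under normexp and 83.7% under lowess. Bins at -0.2 or lower in tumour 239 (5) became 8 under normexp, 2 with medians, 25 at a threshold of -0.1 and 0 at -0.3. In tumour 240 (1) they became 5 under normexp, 2 under lowess, 2 with probes well above background, 0 with medians, 15 at -0.1 and 0 at -0.3. In tumour 252 (13) they became 29 under normexp, 21 under lowess, 7 with medians, 66 at -0.1 and 3 at -0.3, and in tumour 244 (82) 31 at -0.3. The share of probes in lost segments of tumour 239 became 0 under normexp and 0.0572% with the penalty doubled. In tumours 240 and 252 it became 0 under normexp, with probes well above background and with the penalty doubled, and 0.114% with at least 10 probes per segment. In tumour 244 it became 0.0572% at -0.3. The 19-probe low locus averaged -0.37 under normexp, -0.22 with spots well above background, -0.61 to -0.55 without 1 tumour and -3.02 as the run of 3, which itself averaged -1.58 under normexp. The filter on background drops the 2 deepest probes of the locus, so the value of -0.22 follows from the filter. The only lost segment of tumours 240 and 252 was this locus, so the same filter acts on their shares. Chromosome 9 minus chromosomes 4, 6, 10 and 13 ranged over -0.0256 to 0.0126, -0.0194 to 0.0239, -0.0313 to 0.0107 and -0.0015 to 0.0704 without 1 tumour. Gene levels that changed sign were Cadm1 (-0.00097 with the mode of bins, -0.17 under normexp, -0.0219 under lowess, -0.0046 well above background, -0.0174 to 0.0814 without 1 tumour), Cbl (-0.0175 with the mode of bins, -0.0298 under normexp, -0.00898 to 0.0329 without 1 tumour) and Lipc (-0.0127, -0.14 and -0.0432 with the mode of bins, normexp and lowess, -0.0321 to 0.0607 without 1 tumour). Without 1 tumour Bckdhb ranged over -0.053 to 0.0475, Opcml -0.0842 to 0.0112, Ntm -0.048 to 0.0471, Ccr9 -0.0694 to 0.0379, Mmp8 -0.1146 to 0.0234 and Azi2 -0.0823 to 0.00036. Under normexp Mmp1b averaged -0.44, Olfr44 0.0774, Ncapd3 -0.32, Golga4 -0.24, Fbxl2 -0.10 and Dnmt1 -0.0754. Of single values, 38 calls were lost and 3 gained. Centring tumour 244 on the mode of its bin means, which lies 0.107 above its median, put its chromosome 9 mean at -0.339. The depth of the low locus is limited by tumour signals at background. Settings with the mode of bins, bin medians and the run alone were chosen after seeing the data.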
